A study of Mus musculus with 40 samples.

Results

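The SLC25 family of mitochondrial carriers was followed in mouse brown adipose tissue, with Slc25a34 in detail. Members were all rows of the deposited count table whose mouse gene symbol is Slc25a followed by a number, which gave 47 genes of the 52636 in the table. Of these, 41 had enough counts to be tested. Slc25a2, Slc25a21, Slc25a31, Slc25a41, Slc25a43 and Slc25a54 did not, so they have levels here but no test.

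SLC25 proteins sit in the inner mitochondrial membrane, with a few in the outer membrane or in peroxisomes, and exchange metabolites between the cytosol and the matrix. They carry ADP and ATP, phosphate, citrate, dicarboxylates, amino acids, acylcarnitines, nucleotides, cofactors and iron. Brown fat is rich in mitochondria and burns fuel to make heat through Ucp1, which has the same protein fold as these carriers but a symbol outside the rule, and thyroid hormone is a known regulator of that program.

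Tissue came from 40 male C57BL/6 mice, 5 in each of 8 groups, and was profiled by bulk RNA sequencing. The age was 10 to 12 weeks in the series' design text and 10 to 14 weeks in the treatment protocol of the labels. Each mouse received 1 intraperitoneal dose of antibody: control mice 40 mg/kg of an isotype antibody raised against ragweed, a plant allergen, and Jag antibody mice 20 mg/kg each of antibodies to Jag1 and Jag2, which are membrane ligands that activate Notch. Groups of both kinds were collected at 15 h, 5 d and 7 d, and a further group of each at 7 d had been injected daily from day 2 with thyroid hormone, 1 µg of T4 and 0.05 µg of T3 per g of body weight. Both kinds of antibody reach the whole body, and no group was left without an injection. Control mice are numbered 1 to 5 and Jag antibody mice 6 to 10, as in the titles. The labels do not say outright that each library is a separate animal, so p-values measure the spread between these libraries.

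Libraries held 12217623 to 36511893 counts. Brown adipocyte markers (Ucp1, Cidea, Cox7a1, Cox8b, Elovl3 and Dio2) were present in every group, with a summed level of 1908 to 43809 CPM (counts scaled to library size). Skeletal muscle transcripts varied widely between libraries: the 8 muscle markers summed to 0.878 CPM in the lowest library and 175926 CPM in the highest, control mouse 5 at 5 d. Control mice 2 and 3 at 15 h stood apart from the other 3 of their group. Their 5 macrophage markers summed to 2983 and 2454 CPM against 293 to 686 CPM, and SLC25 transcripts took 0.237% and 0.302% of their counts against 0.430% to 0.459%. Brown adipocyte markers summed to 1908 and 3576 CPM in these mice against 6484 to 8302 CPM. Neutrophil markers (S100a8, S100a9, Csf3r and Cxcr2) summed to 2490 and 211 CPM against 4.38 to 24.7 CPM. In whole tissue, fewer cells of a type and less RNA per cell cannot be told apart.

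Levels can be compared between genes only per length, so they are given as CPM per kilobase of exon, averaged over the 40 mice. The family spanned several orders of magnitude. The 8 most abundant members held 74.9% of the family's summed level, among them Slc25a4 (an ADP/ATP carrier, 373), Slc25a1 (the citrate carrier, 226), Slc25a20 (the carnitine-acylcarnitine carrier, which brings fatty acids in for oxidation, 144), Slc25a39 (glutathione import, 139), Slc25a11 (the oxoglutarate carrier, 111), Slc25a51 (NAD import, 57.4) and Slc25a3 (the phosphate carrier, 52.9). Neighbours in this order were close. Slc25a4 was above Slc25a1 in 29 of 40 libraries and Slc25a1 above Slc25a20 in 23 of 40, while Slc25a11 was above Slc25a51 in 39 of 40. Slc25a34 ranked 18 of 47, at a mean of 16.8 and a range of 0.820 to 122 CPM per kilobase. The 6 untested members had means of 0.00425 to 0.180 CPM per kilobase.

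**Figure D1:**
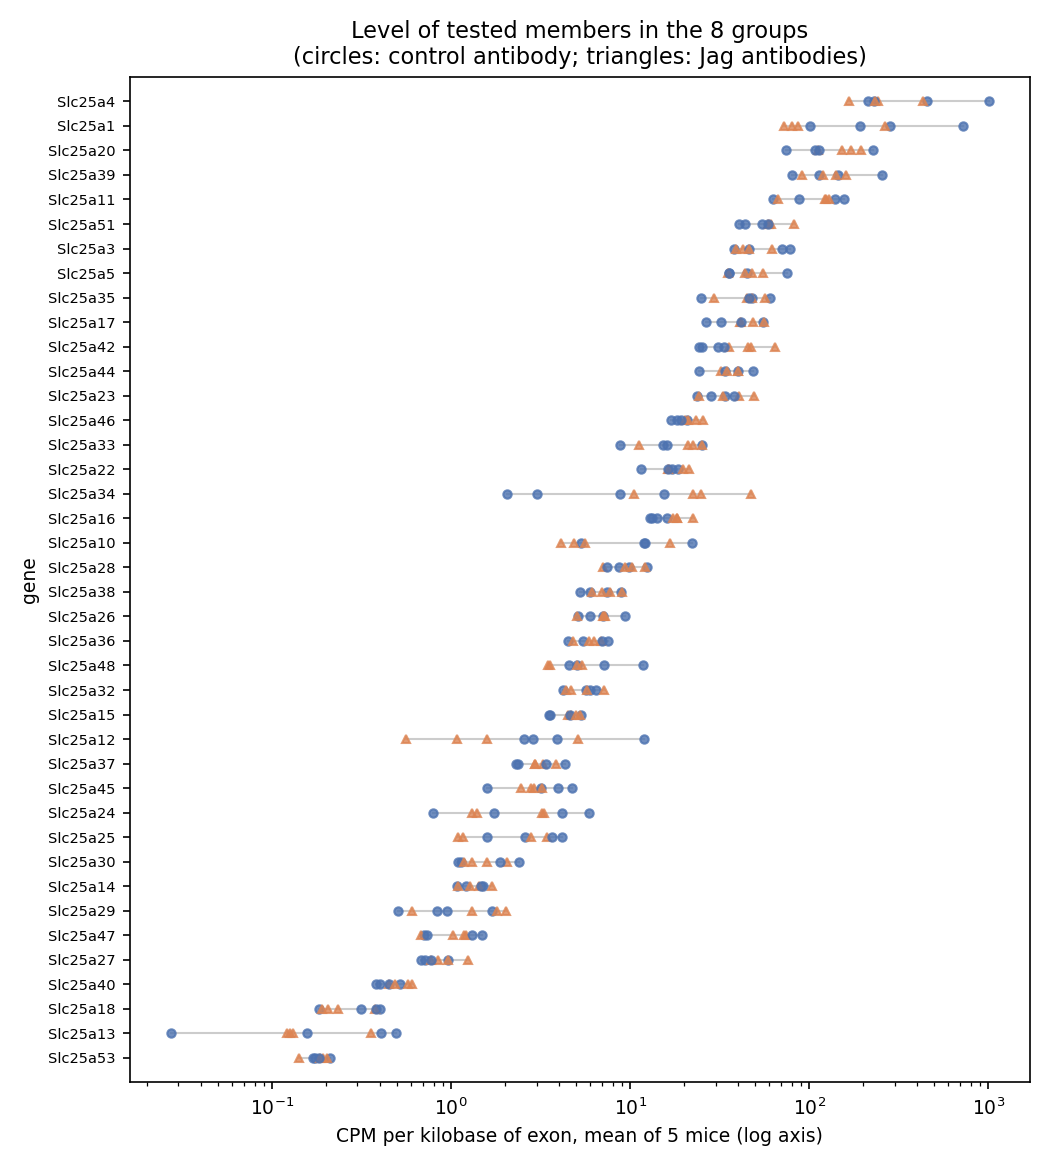
Level of tested SLC25 members in CPM per kilobase of exon (log axis), with 1 point for the mean of 5 mice in each of the 8 groups (circles for the control antibody, triangles for Jag antibodies) and a grey line over their range. Slc25a4 and Slc25a1 lie at the top, and the group means of Slc25a34, Slc25a12 and Slc25a13 spread widely.

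The top of the order differed between groups. Slc25a4 led in 7 of 8 groups, at 167 ± 34.7 (Jag antibody, 15 h) to 1008 ± 1227 CPM per kilobase (control, 5 d; SD, n = 5). In control mice at 7 d Slc25a1 led instead, at 723 ± 206, ahead of Slc25a4 at 455 ± 202. The SD of Slc25a4 in the 5 d control group exceeded its mean because control mouse 5, the library richest in muscle transcripts, held 3176 CPM per kilobase.

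Slc25a34 is a member whose transported substrate is less settled than that of the carriers above. It is a protein-coding gene on the minus strand of chromosome 4, 141618824 to 141623821 (GRCm38), and its exons overlap no other annotated gene. The 250 bases before its start, and before those of Slc25a1 and Slc25a24, are shown because these are the 3 members that passed the hormone comparison under both antibodies. They are RefSeq sequences on GRCm38.p6, written 5′ to 3′ on the gene's strand, at chr4:141623835-141624084 (minus), chr16:17928220-17928469 (minus) and chr3:109122899-109123148 (plus). Capitals mark matches on either strand to AGGTCA, the hexamer that thyroid hormone and other nuclear receptors bind, or to TGGGAA, the core of the motif of the Notch effector RBPJ.
Slc25a34: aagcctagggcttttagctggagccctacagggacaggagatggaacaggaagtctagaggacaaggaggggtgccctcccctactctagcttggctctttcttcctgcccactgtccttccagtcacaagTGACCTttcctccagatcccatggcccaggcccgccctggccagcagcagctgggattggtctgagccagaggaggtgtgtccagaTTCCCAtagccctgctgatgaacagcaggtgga
Slc25a1: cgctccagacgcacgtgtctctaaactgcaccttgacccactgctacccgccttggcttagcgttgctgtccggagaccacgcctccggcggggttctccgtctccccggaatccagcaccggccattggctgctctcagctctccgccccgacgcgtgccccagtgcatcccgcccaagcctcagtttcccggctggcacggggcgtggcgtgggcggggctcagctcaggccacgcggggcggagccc
Slc25a24: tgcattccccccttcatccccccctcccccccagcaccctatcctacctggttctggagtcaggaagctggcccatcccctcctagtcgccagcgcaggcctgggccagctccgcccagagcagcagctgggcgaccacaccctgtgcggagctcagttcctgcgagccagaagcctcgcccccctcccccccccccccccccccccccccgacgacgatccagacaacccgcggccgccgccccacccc
The Slc25a34 window holds 1 match to each, both on the opposite strand, from positions -119 (TGACCT) and -33 (TTCCCA) relative to the start. The windows of Slc25a1 and Slc25a24 hold neither. Of 32851 RefSeq windows of this length, 14.0% hold AGGTCA and 21.6% hold TGGGAA on either strand, so both matches are common. Among 46 windows of the 36 members found in that table, 4 hold AGGTCA and 7 hold TGGGAA. A match is a run of letters and not a shown binding site.

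The mean level of Slc25a34 was higher in Jag antibody than in control mice at each time, though not every comparison passed the test. At 15 h its level was 3.08, 1.92, 1.19, 3.27 and 4.06 log2 CPM in control mice 1 to 5 and 5.53, 5.75, 6.04, 4.96 and 6.67 in Jag antibody mice 6 to 10. The groups did not overlap, and the lowest values belonged to control mice 2 and 3. The fitted log2 fold change was 2.88 (SE 0.58), and 2.38 without those mice. This difference is why the gene was singled out, so it is a description and carries no test.

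The 5 d and 7 d values come from other libraries. At 5 d Slc25a34 was at 4.24, 5.18, 3.81, 4.58 and 4.66 log2 CPM in control mice and 5.78, 5.45, 6.29, 6.76 and 5.55 in Jag antibody mice, again with no overlap. The difference of the means was 1.47 (exact two-sided permutation test, p = 0.00794, the smallest that 5 against 5 allows; 0.0198 adjusted over 5 comparisons of the gene). In edgeR's quasi-likelihood test across all genes the log2 fold change of 1.49 (SE 0.55) had an adjusted p of 0.0860 and was not called, where a call means an adjusted p under 0.05. At 7 d the values were 3.68, 5.70, 5.14, 6.02 and 5.41 log2 CPM in control mice and 5.53, 6.78, 8.35, 4.13 and 7.01 in Jag antibody mice. Here 3 of 5 Jag antibody mice lay above every control mouse, and the groups overlapped. Neither test passed: the log2 fold change of 1.61 (SE 0.55) had an adjusted p of 0.105, and the exact permutation p was 0.206.

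With thyroid hormone the level in control mice was low, at 2.18, 2.26, 2.00, 3.07 and 2.64 log2 CPM, against 5.27, 5.20, 3.93, 2.80 and 5.46 in Jag antibody mice. All but Jag antibody mouse 9 lay above every control mouse. The log2 fold change was 2.36 (SE 0.57, edgeR adjusted p = 0.0296) and the exact permutation p was 0.0159 (adjusted 0.0265). The edgeR call did not survive the loss of any of control mice 1 to 5 or Jag antibody mice 6, 7 and 10 (adjusted p 0.0506 to 0.1045), although the log2 fold change stayed between 2.14 and 2.61.

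**Figure D2:**
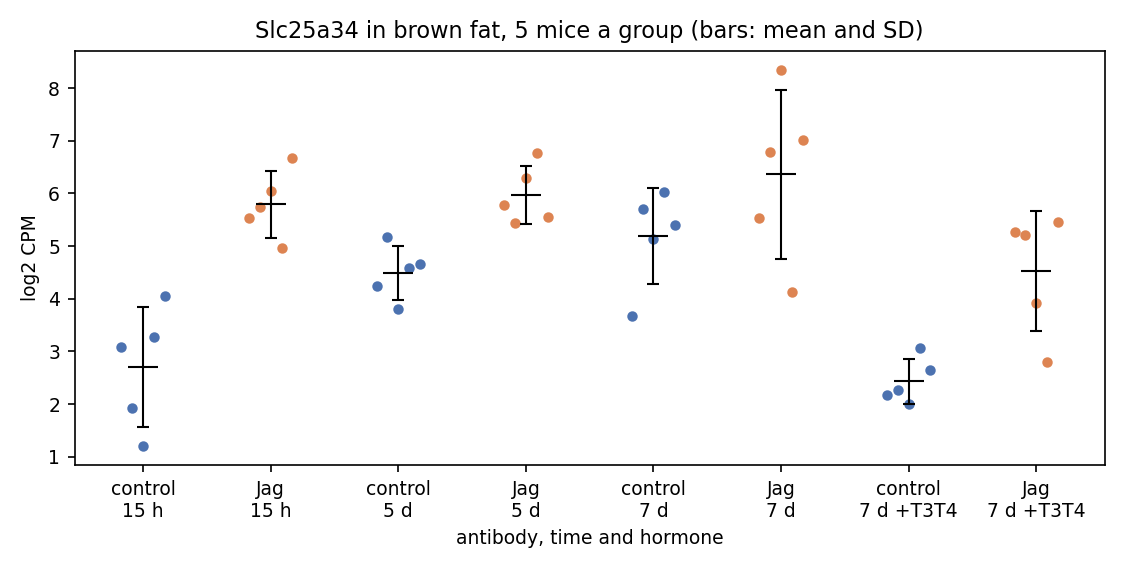
Slc25a34 in log2 CPM for each mouse (points) by antibody, time and hormone, with group mean and SD (n = 5; blue for control, orange for Jag antibodies). Jag antibody mice lie above control mice without overlap at 15 h and 5 d, and both hormone groups lie below their counterparts at 7 d on average.

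Slc25a34 was lower with hormone under both antibodies in edgeR's fit. In control mice at 7 d it fell by 2.91 on the log2 scale (SE 0.58, adjusted p = 0.000231), 7.51-fold, and every hormone-treated mouse lay below every untreated mouse (exact permutation p = 0.00794, adjusted 0.0198). This call stood in all 11 other settings and in all 10 fits that left out 1 mouse. In Jag antibody mice it fell by 2.16 (SE 0.56, adjusted p = 0.0128), but the groups overlapped and the exact permutation p was 0.0556. That call was lost without Jag antibody mouse 8 at 7 d (adjusted p = 0.0780), which had the highest level of all 40 mice. The antibody difference with hormone exceeded that without it by 0.75 (SE 0.77, edgeR adjusted p = 0.655), and the 7 d difference exceeded that at 5 d by 0.11 (SE 0.76, adjusted p = 0.966).

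The order of the 8 group means rose from control with hormone (2.43) through control at 15 h (2.71), control at 5 d (4.49), Jag antibody with hormone (4.53), control at 7 d (5.19), Jag antibody at 15 h (5.79), Jag antibody at 5 d (5.97) to Jag antibody at 7 d (6.36). The values of each pair of neighbours in this order overlapped. All but 1 step was smaller than the larger SD of the pair, the exception being the step of 1.79 from control at 15 h to control at 5 d. Among the 12139 tested genes with a mean of at least 1 log2 CPM, those whose level followed Slc25a34 most closely within groups were Cntfr, a receptor subunit for ciliary neurotrophic factor (r = 0.80 over 40 libraries after group means were subtracted), Ptpa (0.70), Tbc1d20 (0.70), Ei24 (0.69) and Colca2 (0.69). Over the 8 group means they were Katnal2 (r = 0.97), Ptpa (0.95), Fibin (0.95), Cdo1 (0.95) and Apmap (0.94). These were chosen for their likeness in libraries that share cells and depth, so they are a description.

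The other members were compared between the same groups. At 15 h Slc25a34 was the only 1 of the 41 tested members called (2.44%, against 1.14% of all 17079 genes tested), and since it was picked for this difference, nothing is read from that count. Without control mice 2 and 3, no member was called in edgeR, but among all 17589 genes then tested only 1 was called higher and 2 lower. Slc25a34 and Slc25a22, a glutamate carrier, were the 2 members whose groups did not overlap at 15 h (2.48% of all genes). At 7 d edgeR called none of the 41, against 2.5% of all genes, and 11 had an unadjusted p under 0.05 (26.8%, against 20.5% of all genes). At 7 d DESeq2 called 2 members, beside 391 higher and 467 lower among all genes. Each limma fit also called 2, beside 198 and 348 on log2(FPKM + 1) and 224 and 307 on log2(FPKM + 0.1). The groups did not overlap for 2 members at 7 d (3.31% of all genes): the choline carrier Slc25a48, lower by 1.21 (adjusted p = 0.118), and Slc25a24, higher by 0.83 (adjusted p = 0.176). With hormone the antibody comparison again called Slc25a34 alone, against 1.14% of all genes, and 5 members had groups that did not overlap, all higher in Jag antibody mice (6.59% of all genes did not overlap in either direction).

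**Figure D3:**
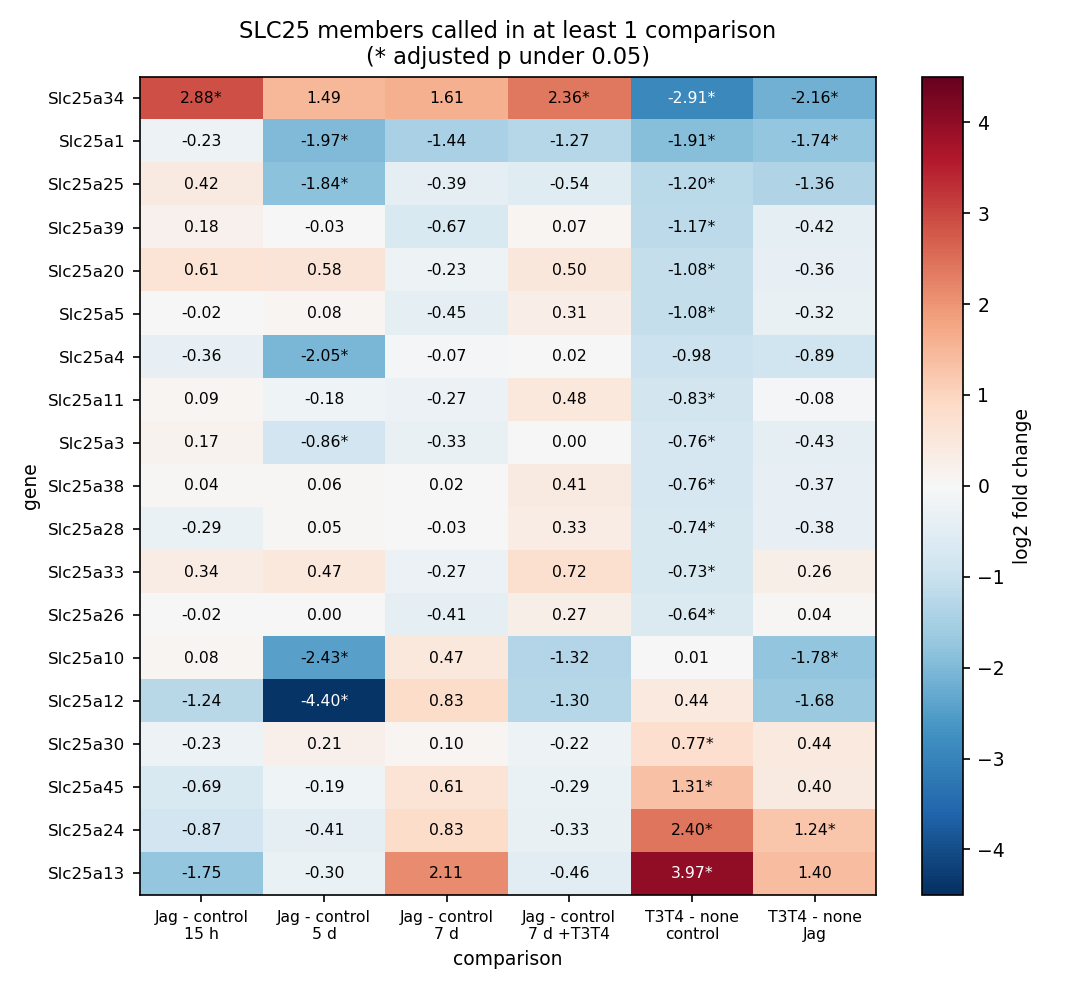
Fitted log2 fold change of SLC25 members called in at least 1 of 6 comparisons, 1 row a gene and 1 column a comparison; red is higher in the group named first, blue lower, and an asterisk marks an adjusted p under 0.05. The column of hormone in control mice holds the most asterisks of the 6 columns, and Slc25a34 is the only row with asterisks for Jag antibodies higher than control.

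At 5 d, 6 of 41 members were lower in Jag antibody mice and none was higher, 14.6% against 8.02% of all genes called (5.93% lower and 2.09% higher). The groups did not overlap for 5 members, 4 of them lower, and for 4.94% of all genes. The 6 called members were the ADP/ATP carrier Slc25a4, the phosphate carrier Slc25a3, the ATP-Mg/phosphate carrier Slc25a25, the citrate carrier Slc25a1, the dicarboxylate carrier Slc25a10 and the aspartate-glutamate carrier Slc25a12. The same contrast held a large difference in skeletal muscle RNA. The 8 muscle markers summed to 1018 to 175926 CPM in control mice and 0.878 to 43.9 CPM in Jag antibody mice, none was at 0 in a whole group, and 6 of the 8 were called lower. Of the 4 tested liver markers 3 were also called lower, as were 2 of 4 pericyte and smooth muscle markers, and their part in the members' calls was not tested. The mitochondrially encoded share of counts was 18.0 ± 2.62% in Jag antibody and 13.8 ± 2.46% in control mice, without overlap (SD, n = 5, exact permutation p = 0.00794, adjusted 0.0408). With the muscle score (the mean log2 CPM of these markers) as a covariate only Slc25a1 was called, with a log2 fold change of -2.42. Among all 17079 genes that fit called 17 higher and 72 lower, against 357 and 1012 without the score. The score was 5.10 to 13.7 in control and -2.69 to 2.20 in Jag antibody mice, without overlap. That fit takes a common slope for the score from all 40 libraries, and here it relies on that slope across the gap between the groups. The calls it lost are assigned neither to muscle RNA nor to the antibody. Without control mouse 5 alone, Slc25a1 was also the only member called. With per-library length and GC offsets the calls split into 3 higher (Slc25a33, Slc25a34 and Slc25a42) and 6 lower, beside 808 higher and 1094 lower among all genes.

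Slc25a12, which is abundant in muscle, had the largest of these differences. It stood at 4.25, 2.76, 6.35, 6.77 and 7.79 log2 CPM in control mice and at 1.65, 2.44, 1.63, 2.30 and 2.18 in Jag antibody mice (log2 fold change -4.40, SE 1.17, edgeR adjusted p = 0.0200). Control mice 3, 4 and 5, which held the most muscle RNA, were the highest. Its call was also lost without Jag antibody mouse 6 or 8. Slc25a4 stood at 8.69, 9.94, 10.65, 10.43 and 12.87 log2 CPM in control mice and 9.31, 9.41, 8.55, 9.47 and 8.85 in Jag antibody mice, with overlap (-2.05, SE 0.50, adjusted p = 0.0111), and its difference was -0.99 without control mouse 5 (adjusted p = 0.183). Slc25a3 was lower by 0.86 (SE 0.20), also with overlap, and Slc25a10 (-2.43, SE 0.60) and Slc25a25 (-1.84, SE 0.46) without.

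Slc25a1, which exports citrate for fatty acid synthesis, kept its call at 5 d under all 8 other settings. Its level was 8.45, 9.65, 9.64, 9.25 and 8.96 log2 CPM in control mice and 6.72, 7.53, 7.18, 7.52 and 7.34 in Jag antibody mice. The groups did not overlap, and the log2 fold change was -1.97 (SE 0.49, edgeR adjusted p = 0.0130), 3.92-fold lower. At 7 d the values were 10.48, 11.14, 10.06, 10.43 and 10.73 in control and 7.97, 9.65, 7.81, 10.14 and 8.87 in Jag antibody mice, of which only mouse 9 reached the control range. That difference of -1.44 (SE 0.48) had an adjusted p of 0.0976, and with hormone it was -1.27 (SE 0.48, adjusted p = 0.232). At 15 h it was -0.23 (SE 0.47, adjusted p = 0.949), with overlapping groups.

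**Figure D4:**
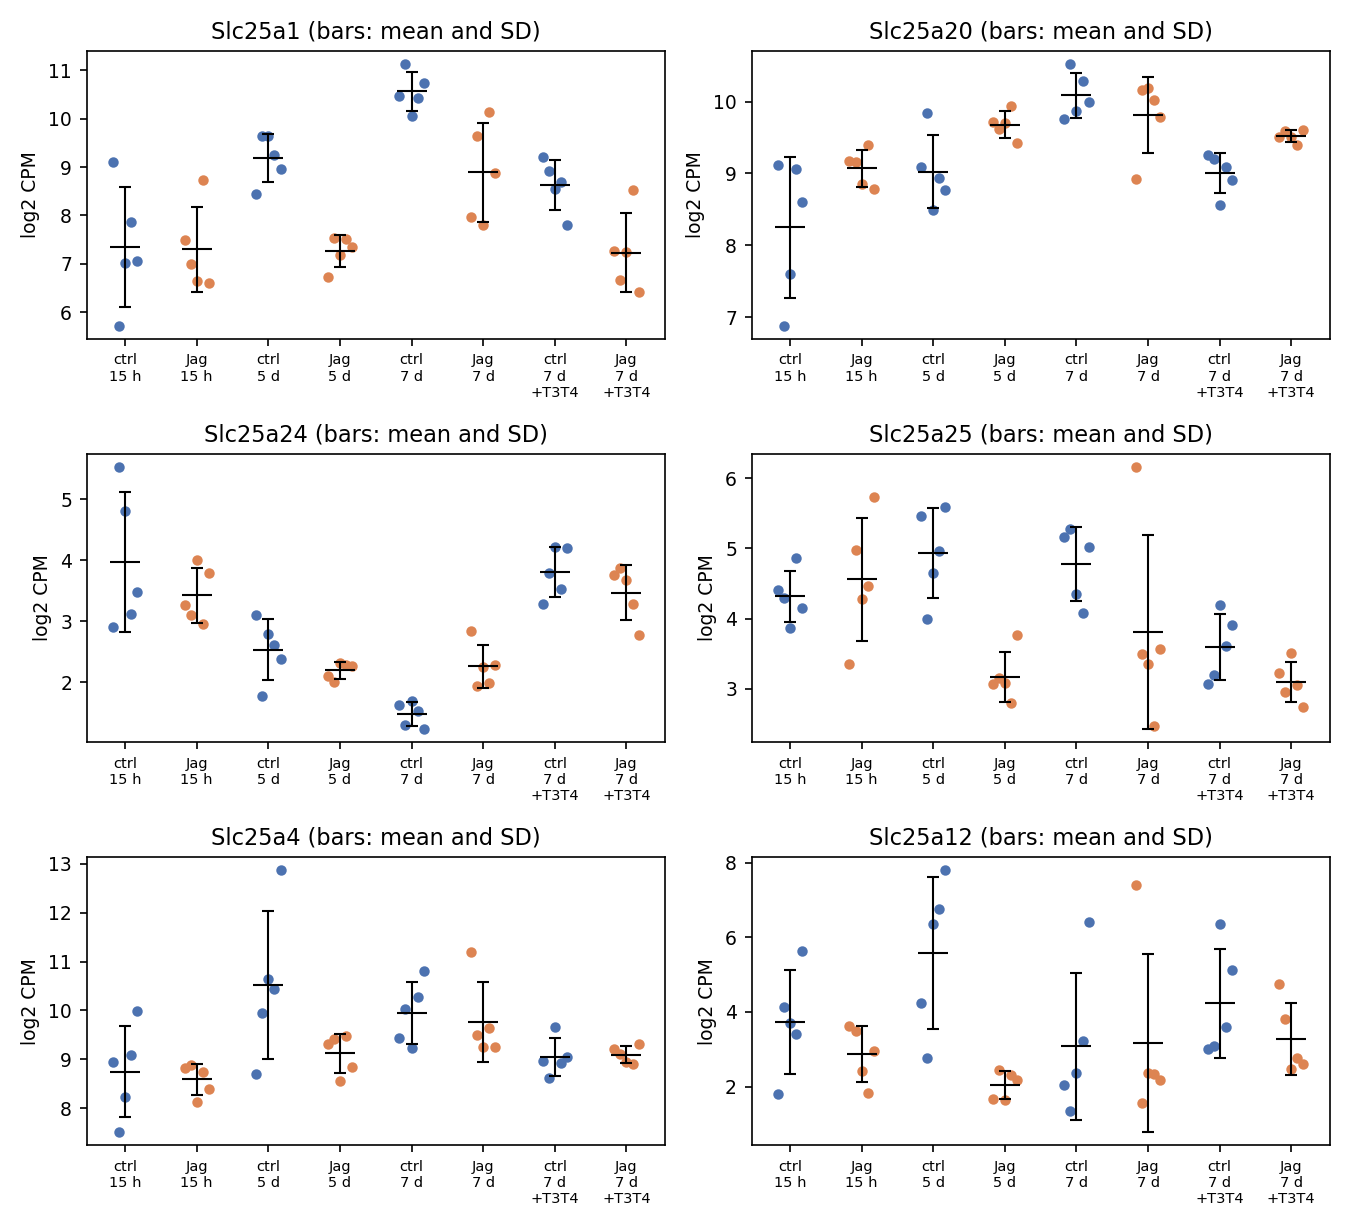
Log2 CPM of Slc25a1, Slc25a20, Slc25a24, Slc25a25, Slc25a4 and Slc25a12 in each mouse (points; blue for control, orange for Jag antibodies) with group mean and SD (n = 5). Slc25a1 peaks in control mice at 7 d and Slc25a24 is lowest there, while Slc25a4 and Slc25a12 each have single libraries far above their group at 5 d or 7 d.

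Thyroid hormone in control mice gave the most calls among the 6 comparisons of groups. Of 41 members, 17 were called, 13 lower and 4 higher with hormone. That is 41.5%, close to the 43.2% of all genes called, so the number is no result about the family. By direction, 31.7% of members were lower against 22.9% of all genes, and 9.76% were higher against 20.3%. The groups did not overlap for 11 members, 7 of them lower, and for 29.8% of all genes. The median log2 fold change of the members was -0.36 against 0.04 for all genes. The SLC25 share of counts was 0.494 ± 0.024% with hormone and 0.629 ± 0.082% without (SD, n = 5, exact permutation p = 0.00794, adjusted 0.0408 over 36 comparisons of library measures).

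Several library measures moved with this comparison. Of the 5 macrophage markers 4 were called higher, and their summed level was 551 to 1113 CPM with hormone against 127 to 314 CPM. Of the 6 brown adipocyte markers 5 were called lower (4479 to 8714 against 13544 to 43809 CPM), and all 3 cycling markers were called higher (46.6 to 115 against 0.507 to 4.48 CPM), as were 3 of 4 endothelial markers. The mitochondrially encoded share of counts was 12.8 ± 2.03% against 20.0 ± 4.05% (SD, n = 5, exact permutation p = 0.00794, adjusted 0.0408). The dependence of a library on transcript length also differed: the slope of log2 level, relative to the mean of all libraries, per doubling of exonic length was 0.166 ± 0.0862 with hormone and -0.226 ± 0.199 without (SD, n = 5, exact permutation p = 0.00794, adjusted 0.0408). With length and GC offsets 18 members were called, 4 higher and 14 lower, beside 2999 higher and 3653 lower among all genes. With the macrophage score as a covariate, chosen after the data were seen, 16 members were called and the split turned to 10 higher and 6 lower. Among all 17079 genes that fit called 2592 higher and 3170 lower, against 3463 and 3915 without the score. The summed macrophage markers did not overlap between these groups, and that fit takes a common slope for the score from all 40 libraries. It relies on that slope across the gap, so changed calls are assigned neither to macrophage RNA nor to hormone. Calls absent from that fit included those for Slc25a1, Slc25a5, Slc25a11, Slc25a20, Slc25a26, Slc25a30, Slc25a33, Slc25a39 and Slc25a45, while those for Slc25a3, Slc25a13, Slc25a24, Slc25a25, Slc25a28, Slc25a34 and Slc25a38 stood with the same sign. The part of adipocyte, endothelial and cycling markers in these results was not tested.

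Among the carriers of adenine nucleotides, phosphate and ATP-Mg, 3 of 6 tested members fell with hormone in control mice and 1 rose, where 22.9% of all genes fell and 20.3% rose. Slc25a24, an ATP-Mg/phosphate carrier regulated by calcium, was the riser. It went from 1.62, 1.30, 1.69, 1.53 and 1.23 log2 CPM without hormone to 3.27, 3.79, 4.21, 3.52 and 4.19 with it, with no overlap (log2 fold change 2.40, SE 0.36, edgeR adjusted p = 1.06e-05), 5.26-fold. Under Jag antibodies it went from 2.83, 1.94, 2.24, 1.99 and 2.28 to 3.76, 3.86, 3.67, 3.27 and 2.77, where only 1 hormone-treated mouse fell within the untreated range (1.24, SE 0.34, adjusted p = 0.0184). Without mouse 7 of either group, or with the macrophage score as a covariate, that second call was lost. Its highest values in the series, 5.52 and 4.81, were in control mice 2 and 3 at 15 h.

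The fallers in that group were the ADP/ATP carrier Slc25a5 (log2 fold change -1.08, SE 0.23), the phosphate carrier Slc25a3 (-0.76, SE 0.20) and Slc25a25 (-1.20, SE 0.45, adjusted p = 0.0307). Slc25a3 varied little among hormone-treated control mice, at 8.05, 8.01, 8.04, 8.03 and 7.83 log2 CPM against 8.57, 9.03, 8.45, 8.96 and 8.68 without hormone. The call for Slc25a25, whose groups overlapped, was lost in 6 of 10 fits that left out 1 mouse: control mice 1, 2 or 5 without hormone, or 1, 2 or 4 with it. Slc25a25 shares 379 exonic bases with Naif1 on the opposite strand, and whether the counting used strand is not given in the sources used here. Other called members have such overlaps too, including Slc25a11 (189 bases with Rnf167), Slc25a26 (144 with Lrig1), Slc25a33 (281 with Gm13068) and Slc25a10 (228 with Gm11788). The part of these overlaps was not tested. Slc25a4 did not pass (-0.98, SE 0.48, adjusted p = 0.0986).

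Of the 3 tested carriers of citrate, dicarboxylates and oxoglutarate, Slc25a1 and Slc25a11 fell with hormone in control mice. Slc25a1 was at 9.20, 8.91, 8.54, 8.69 and 7.81 log2 CPM with hormone, below all of the untreated values given above (-1.91, SE 0.49, edgeR adjusted p = 0.00221). Under Jag antibodies it was at 7.27, 6.67, 7.25, 8.53 and 6.41 with hormone, again lower (-1.74, SE 0.49, adjusted p = 0.0209) but overlapping. That second call was lost without Jag antibody mouse 7 or 9 at 7 d, without mouse 7 or 10 of the hormone group, and with the macrophage score. Slc25a11 fell by 0.83 (SE 0.22) in control mice, with no overlap, and was at -0.08 in Jag antibody mice. Slc25a10 was called only in Jag antibody mice (-1.78, SE 0.59, adjusted p = 0.0496), and 8 of the 10 fits that left out 1 mouse lost it.

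Slc25a20, the carrier on which long-chain fatty acid oxidation depends, fell in control mice. It was at 9.75, 10.52, 9.87, 10.29 and 9.99 log2 CPM without hormone and 9.26, 9.21, 8.56, 9.10 and 8.91 with it (-1.08, SE 0.28, edgeR adjusted p = 0.00264), with no overlap. In Jag antibody mice the values were 8.92, 10.16, 10.20, 10.02 and 9.78 without and 9.50, 9.60, 9.51, 9.40 and 9.61 with hormone, a difference of -0.36 (SE 0.28) that did not pass (adjusted p = 0.422). The difference between these effects was 0.73 (SE 0.40, adjusted p = 0.438), so the hormone effect on Slc25a20 was not shown to depend on the antibody.

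Among 8 tested amino acid carriers, Slc25a38 (a glycine carrier needed for haem synthesis) fell in control mice by 0.76 (SE 0.17) and Slc25a13 rose. Slc25a13, the second aspartate-glutamate carrier, is scarce in this tissue: control mice at 7 d held 3, 1, 3, 0 and 2 counts, and hormone-treated control mice 27 to 84. The fitted log2 fold change of 3.97 (SE 0.63, edgeR adjusted p = 2.15e-05) rests on those few counts. Slc25a13 was also the only member whose antibody difference was called as differing between 7 d and 15 h, by 3.86 (SE 0.84, adjusted p = 0.0218; 1.31% of all genes were called). It was -1.75 (SE 0.53, adjusted p = 0.0893) at 15 h and 2.11 (SE 0.65, adjusted p = 0.0683) at 7 d, neither of which passed alone. The call was lost without control mouse 2 or 3 at 15 h, control mouse 2 at 7 d or Jag antibody mouse 6 at 7 d. It was also lost with control mice 2 and 3 at 15 h both left out (2.40, adjusted p = 0.274), with only the groups compared (adjusted p = 0.142), with the replicate block (adjusted p = 0.0773) and in both limma fits (adjusted p 0.229 and 0.273).

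The carriers of cofactors, nucleotides, glutathione and iron formed the group with the most members, 13 tested, of which 5 fell with hormone in control mice and none rose, beside 22.9% and 20.3% of all genes. They included Slc25a39 (-1.17, SE 0.29), the mitoferrin Slc25a28 (-0.74, SE 0.23), the pyrimidine nucleotide carrier Slc25a33 (-0.73, SE 0.27) and the S-adenosylmethionine carrier Slc25a26 (-0.64, SE 0.23). The group's median log2 fold change was -0.36. Slc25a39 spanned 8.46 to 10.12 log2 CPM without hormone and 7.89 to 8.69 with it, so the groups just overlapped. Calls for Slc25a33 and Slc25a26 were each lost in 5 of the 10 fits that left out 1 mouse, in both cases without control mouse 2 or 4 at 7 d or hormone-treated control mouse 2, 3 or 5. Slc25a33 was called in only 5 of 11 other settings. The call for Slc25a28 was lost without control mouse 4 at 7 d. None of the 13 was called in Jag antibody mice, where the group's median was 0.04.

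Of the 3 carriers related to uncoupling proteins, only Slc25a30 was called, higher by 0.77 (SE 0.24) in control mice with hormone. Among the 7 tested members of other or unsettled role, Slc25a34 fell and Slc25a45 rose (1.31, SE 0.29). Slc25a45 was at 2.02, 1.92, 2.71, 1.39 and 2.45 log2 CPM without hormone and 3.04, 3.34, 3.59, 3.86 and 3.39 with it, with no overlap.

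In Jag antibody mice 4 of 41 members were called with hormone, 9.76% against 9.5% of all genes: Slc25a1, Slc25a10 and Slc25a34 lower and Slc25a24 higher. The groups did not overlap for 1 member, Slc25a3 (12% of all genes), which was not called (-0.43). The median over members was -0.07 against -0.04 for all genes. Of the 5 macrophage markers 2 were called higher here, while their summed level overlapped (392 to 1724 CPM with hormone and 165 to 694 CPM without) and did not pass (exact permutation p = 0.0317, adjusted 0.104), and all 3 cycling markers were called higher (9.41 to 50.8 against 1.40 to 5.64 CPM). The length slope was 0.117 ± 0.0627 with hormone and -0.0601 ± 0.0764 without (SD, n = 5, exact permutation p = 0.00794, adjusted 0.0408). With length and GC offsets 3 members were called, Slc25a24 higher and Slc25a25 and Slc25a34 lower, and Slc25a1 and Slc25a10 were not. Among all genes the offsets gave 852 higher and 1126 lower, against 732 and 890 without them. With the macrophage score as a covariate 8 members were called, 6 higher and 2 lower, and Slc25a1, Slc25a24 and Slc25a34 were no longer among them. Calls among all genes also rose with that score, to 1077 higher and 1160 lower. No member was called in the test of whether the antibody difference was itself different at 7 d and 5 d (1.29% of all genes were called; 8 members, 19.5% against 16.7% of all genes, had an unadjusted p under 0.05, and DESeq2 called 3 members, beside 837 higher and 127 lower among all genes). None was called either in the test of whether the hormone effect depended on the antibody (0.00586% of all genes were called, DESeq2 also called no member, and 9 members, 22% against 12.3% of all genes, had an unadjusted p under 0.05). The hormone effects under the 2 antibodies were thus not shown to differ for any member.

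Genes of the machinery that inserts these carriers were also compared. Carrier precursors pass the outer membrane through the TOM complex, are escorted by small TIM chaperones and are inserted by the TIM22 complex. Of 12 such genes 11 were tested, and 8 fell with hormone in control mice and none rose, where 22.9% of all genes fell and 20.3% rose (median log2 fold change -1.44 against 0.04 for all genes): Timm13 (-2.18, SE 0.47), Timm8b (-1.91, SE 0.37), Timm10b (-1.73, SE 0.31), Tomm22 (-1.54, SE 0.28), Timm10 (-1.50, SE 0.28), Timm9 (-1.44, SE 0.25), Timm22 (-1.42, SE 0.23) and Tomm40 (-0.99, SE 0.27). Tomm70a (-0.13), Timm29 (-0.23) and Tomm20 (-0.20) were not called. As given above, the length slope and the macrophage and brown adipocyte markers also differed in this comparison. Their part in the hormone differences of these genes, and of the related genes below, was not tested. Under Jag antibodies Timm22 (-0.80, SE 0.23) and Tomm20 (-0.56, SE 0.19) fell with hormone. No gene of this list was called in an antibody comparison.

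Of the proteins with the carrier fold outside the family, Ucp1 (-1.61, SE 0.42), Mtch1 (-1.10, SE 0.24) and Mtch2 (-1.07, SE 0.26) fell with hormone in control mice, and Ucp2, which is common in immune cells, rose (1.29, SE 0.30). Ucp2 also rose in Jag antibody mice (0.92, SE 0.29), where the other 4 did not pass. Among 14 genes of other inner membrane transport, 6 fell and 1 rose with hormone in control mice, where 22.9% of all genes fell and 20.3% rose. Both directions together were close to the 43.2% of all genes called. The fallers included both subunits of the mitochondrial pyruvate carrier, Mpc1 (-1.50, SE 0.35) and Mpc2 (-1.66, SE 0.36), the calcium uniporter regulators Micu2 (-0.57, SE 0.14) and Smdt1 (-2.03, SE 0.35), and Sfxn4 (-1.30, SE 0.21) while Sfxn3 rose (1.26, SE 0.30). Under Jag antibodies 3 fell, Micu2 (-0.51, SE 0.14) and Sfxn4 (-0.93, SE 0.21) among them, and none rose. Sfxn2, a sideroflexin, rose with Jag antibodies at 15 h (0.58, SE 0.15, edgeR adjusted p = 0.0440), at 7 d (1.29, SE 0.15) and at 7 d with hormone (1.08, SE 0.15). At 5 d its difference of 0.25 (SE 0.15, edgeR adjusted p = 0.311) did not pass, and the 7 d difference exceeded it by 1.04 (SE 0.21, adjusted p = 0.0173). Mpc2 fell with Jag antibodies at 7 d (-1.29, SE 0.36, edgeR adjusted p = 0.0430). The calls for Sfxn2 at 15 h and Mpc2 at 7 d passed narrowly, and their values under other settings are not given here.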

How the data were processed

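Total RNA was extracted with Trizol and columns and sequenced as single-end 50-base reads, per the labels' protocols. The authors deposited raw counts per Ensembl gene and a companion FPKM table, both for the 40 mice. GSNAP and limma are named in the submitters' processing notes, and the build and strand setting are not given in the sources used here. In the deposited FPKM values, count over a median-of-ratios size factor and a length, the length matched the genomic span within 1% for 84.8% of 14275 genes and the exonic length for 0.553%, so long introns lower them.

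Columns were matched to mice through the labels' descriptions. Symbols were found for 52403 genes, and coordinates and lengths came from GENCODE M21 (GRCm38). The quasi-likelihood test of edgeR 4.0.16 (R 4.3.3) was run on the counts: filterByExpr over 8 groups (17079 genes), TMM, 1 robust quasi-likelihood fit with a mean per group, and Benjamini-Hochberg adjustment over all genes. The 6 comparisons and 3 interactions share control groups. Log2 CPM used a prior count of 2, and SEs follow from the F statistic. On simulated counts for the 15 h comparison (17079 genes) the test recovered 36 of 100 genes changed by 1 on the log2 scale and 86 of 100 changed by 2, with 3 false calls. All simulated libraries shared a common mean profile, and only genes with a mean over 1 CPM were changed. The simulation held no other group differences, no muscle or macrophage differences and no outlying mice, so real error rates may differ.

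Alternatives were DESeq2 1.42.0, RLE factors, no filter, only the groups compared, a muscle score, limma 3.58.1 on log2(FPKM + 1) and log2(FPKM + 0.1), length and GC offsets, a replicate block, and leaving out each mouse. Chosen after seeing the data were a macrophage score and leaving out control mice 2 and 3 at 15 h. Named in each comparison were all called members up to 12, or the 12 with the largest log2 fold change and a mean of at least 1 log2 CPM, examples per function group, and Slc25a34. The members, the lists and these rules were chosen with earlier results of these data known, and in the larger comparison Slc25a13, Slc25a26, Slc25a28, Slc25a33 and Slc25a38 fall outside it and were named after their values were seen. Some genes that the counts include are not reported here by name and are not drawn.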

Additional observations from a re-analysis of the deposited data

Results flagged for a closer look

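In 104 sets of 5 values (8 groups of mice for each of 9 members and 4 library measures), 4 had a mouse whose gap to the nearest other exceeded Dixon's 95% limit of 0.71 of the group's range, while chance gives about 5.2. Jag antibody mouse 6 at 7 d was such a mouse for Slc25a12, at 7.41 log2 CPM against at most 2.36 in the others, and for Slc25a4, at 11.2 against at most 9.65. Its muscle markers summed to 51059 CPM, the most in its group, where the others held 13.9 to 736 CPM, and the part of muscle RNA in its values was not tested. For Slc25a3, control mouse 5 with hormone was low at 7.83 (next 8.01), as was Jag antibody mouse 10 with hormone at 7.70. The antibody difference of Slc25a13 was 3.86 higher on the log2 scale at 7 d than at 15 h, the sole member whose difference between those times was called, on few counts.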

How the results depend on the processing

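Counts of called members moved as follows, and counts over all genes, which moved too, are given beside them as higher and lower. At 15 h (1) DESeq2 and the length and GC offsets each gave 2, and fitting only the groups compared, or leaving out control mice 2 and 3, gave 0. All-gene counts were 40 and 154 in the fit used above, 122 and 455 with DESeq2 and 67 and 207 with the offsets. They were 0 and 0 with only the groups compared, and 1 and 2 without those mice. At 5 d (6) the muscle score left 1, and 17 and 72 of all genes against 357 and 1012. At 7 d (0) DESeq2 and both limma fits gave 2. For all genes these fits gave 391 and 467, 198 and 348, and 224 and 307, against 207 and 220. With hormone the antibody comparison (1) gave 2 with DESeq2 or the offsets, 4 with only the groups compared and 0 without the filter. In the same order the all-gene counts were 240 and 209, 181 and 88, 401 and 293, and 73 and 44, against 119 and 75. Hormone in Jag antibody mice (4) gave 2 with limma on log2(FPKM + 1) and 8 with the macrophage score. All genes gave 717 and 502, and 1077 and 1160, against 732 and 890. The 7 d against 5 d interaction (0; 8 members at an unadjusted p under 0.05) gave 3 with DESeq2 and 1 with the replicate block. Its all-gene counts were 837 and 127, and 330 and 41, against 199 and 21. The 7 d against 15 h interaction (1) gave 3 with DESeq2, 2 with the offsets and 0 with only the groups compared, either limma fit, the replicate block, or control mice 2 and 3 left out. Its all-gene counts were 464 and 174 with DESeq2 and 213 and 70 with the offsets, against 177 and 46. The fits that gave 0 had, in the same order, 4 and 3, 29 and 49, 37 and 42, 20 and 15, and 9 and 4. The cause was not tested.

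Slc25a34 at 5 d passed with only the groups compared (1.44) and with the offsets (1.82). With hormone its antibody difference did not pass without the filter (2.36) or with limma on log2(FPKM + 1) (1.48). Its hormone difference in Jag antibody mice did not pass with only the groups compared (-2.13) or the macrophage score (-1.50). Leaving out 1 mouse gave 0 to 3 calls at 15 h, 1 to 8 at 5 d, 0 to 3 at 7 d, 0 to 1 with hormone, 14 to 18 for hormone in control mice, 1 to 4 in Jag antibody mice, and 0, 0 to 3 and 0 to 3 for the interactions with hormone, 5 d and 15 h. Slc25a34 ranged over 2.61 to 3.32 at 15 h, 1.25 to 1.66 at 5 d, 0.87 to 1.88 at 7 d (called without Jag antibody mouse 9), 2.14 to 2.61 with hormone, and -3.14 to -2.68 and -2.42 to -1.42 for hormone in control and Jag antibody mice. No sign reversed among these results and the members that were called. Differences near 0 did turn: the 7 d against 5 d difference of Slc25a34 (0.11) fell to between -0.62 and -0.00375 in 4 of 20 such fits, and Slc25a1 at 15 h (-0.23) ranged from -0.79 to 0.45. For the called members other than Slc25a34, of 268 values of 26 named results under other settings 223 kept their call and 45 lost it.

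The labels do not say that a number pairs mice across groups. Deviations of same-numbered mice correlated at a mean of 0.0947 to 0.208 over 6 pairs of groups, not above 0.1 in every pair. As a replicate block the numbers gave 18 calls for hormone in control mice and 4 in Jag antibody mice. Among all genes that block gave 3639 higher and 3785 lower in control mice, and 731 and 765 in Jag antibody mice. At this depth members with few counts, such as Slc25a13, are imprecise.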
